A study of Mus musculus with 6 samples.

Results

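The 34 genes described here encode the subunits of the glutamate receptors and the scaffold proteins that hold these receptors at the postsynaptic membrane, of 27578 named genes on the array. They were chosen by name, as a family, with earlier results of these data known. They fall into 4 AMPA, 5 kainate, 7 NMDA and 1 delta receptor subunits, 7 metabotropic receptors, 3 Homer, 4 Dlg and 3 Shank scaffolds. The array carried 63 probes for them, and every probe was examined. Of the 34 genes, 33 gave a signal that could be tested. The exception was Grm6, a metabotropic receptor best known from the bipolar cells of the retina, whose probe was above background on none of the 6 arrays.

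RNA came from brain tissue of male mice on a C57BL/6N background. The groups were 3 samples labelled as wild type and 3 labelled Pla2g2e-/-, a genotype that lacks a secreted phospholipase A2, and titles call all 6 sham-operated. The treatment text attached to every sample describes instead brain ischemia, with the middle cerebral artery occluded for 60 min, and the labels do not settle which is right. Whether the samples came from separate animals, their age and the dissected region are not given in the sources used here, so the p-values rest on a spread between samples that may be technical. Each sample was hybridised to its own one-colour Agilent array.

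Glutamate is the main excitatory transmitter of the brain. It opens AMPA, kainate and NMDA receptors, which are ion channels built from several subunits, and it acts through metabotropic receptors, which signal through G proteins. Dlg proteins (PSD-95 and its relatives) bind the tails of the channels, Homer proteins bind the group I metabotropic receptors, and Shank proteins join both layers to the cytoskeleton.

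Between 35288 and 36676 of 43020 non-control spots were well above background on each array (82.0% to 85.3%) and no spot was saturated. All 11 general neuron markers were measured, and their median difference between genotypes was 0.03 on the log2 scale. At an unadjusted p under 0.05 (limma), 2 were higher in knockout, Nefl by 0.23 and Nefm by 0.28, and 0 lower. Of all genes, 3.1% were called higher and 9.34% lower. Their summed signal, as log2 relative to the 75th percentile of the array, spanned 7.78 to 7.88 in wild type and 7.83 to 7.93 in knockout. Markers of brain regions varied much more. The 11 measured striatum markers had a median of -0.81, and on wild-type array 3 they stood 0.96 above the wild-type mean, against -0.28 and -0.66 on the other two wild-type arrays and -0.87 to -0.80 on the knockout arrays. Choroid plexus and ependyma markers spanned a summed signal of 2.33 to 4.57 in wild type and 2.93 to 3.81 in knockout. Median differences were also below 0 for markers of blood (-0.69), meninges (-0.45), thalamus and hypothalamus (-0.41), oligodendrocytes (-0.33), olfactory bulb (-0.31) and cerebellum (-0.16). Neocortex markers had a median of 0.16. Medians for hippocampus, astrocytes, microglia, endothelium with pericytes, and oligodendrocyte precursors lay between -0.10 and 0.03. In RNA from whole tissue, fewer cells of a type and less RNA per cell cannot be told apart. The 3 wild-type arrays and knockout array 1 were on slide 1, and knockout arrays 2 and 3 were on slide 2. Both probes of Pla2g2e itself were dim, and both were well above background on all 3 knockout arrays. The first read -8.55, -8.65 and -9.20 in wild type and -8.47, -8.51 and -8.45 in knockout. The second read -7.14, -7.31 and -6.73 in wild type and -7.11, -7.94 and -7.90 in knockout, so that knockout array 1 lay within the wild-type range. Which part of the gene was removed is not given in the sources used here, so these probes do not check the labels.

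Levels below are log2 signals relative to the 75th percentile of all non-control probes on the same array, so 0 is a fairly bright probe. A probe's signal depends on its sequence, so levels of different genes were not ranked. Of the 33 measured members, 19 lay above 0 on all 6 arrays and 14 lay below 0 on all 6. Their means over the 6 arrays ran from -4.69 for Grin2d, an NMDA subunit, to 4.33 for Dlg3, the scaffold also called SAP102. All 33 members had a value on all 6 arrays. The plot of levels by sample shows their spread, with an SD of 0.02 to 0.29 in wild type and 0.01 to 0.53 in knockout.

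**Figure D1:**
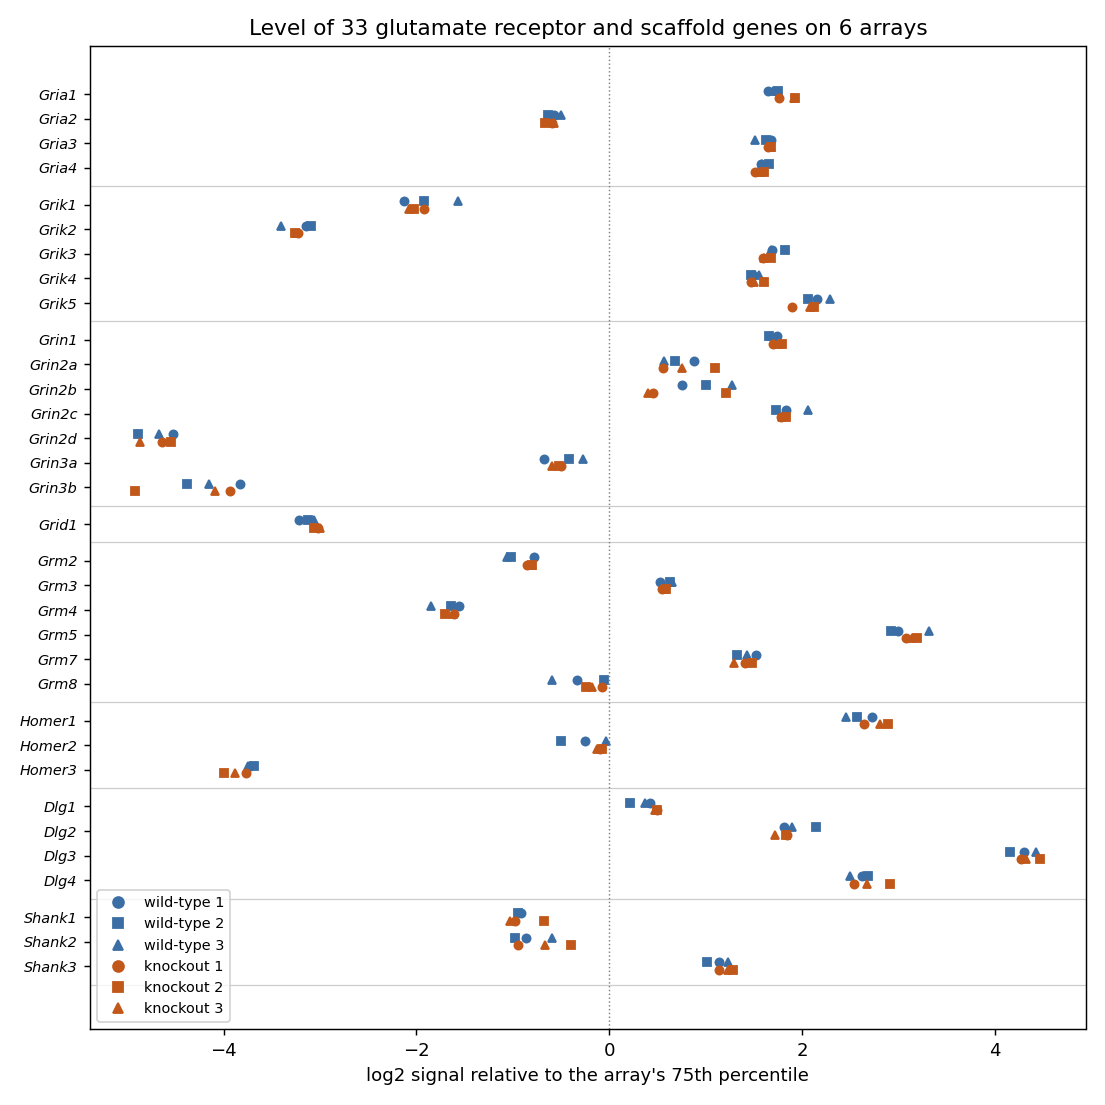
Level of each of the 33 measured members on each of the 6 arrays, as log2 signal relative to the 75th percentile of the array (horizontal axis). Symbols mark the replicate and colours the genotype, grey lines separate the classes, and the means run from -4.69 (Grin2d) to 4.33 (Dlg3).

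Comparing knockout with wild type, no member passed limma's test. With p-values adjusted over all 22565 genes tested, the smallest adjusted p among the members was 0.41, for Gria1, and the smallest of any gene was 0.20. At an unadjusted p under 0.05, 0 of 33 members were called, whereas 12.4% of all genes tested were (3.1% higher and 9.34% lower in knockout), and 0 genes of the whole array passed after adjustment. Of the genes called over the whole array, 24.9% were higher in knockout, and this share was 71.2% with median centring, 48.1% with quantile normalization and 51.1% with normexp background correction. The split of calls between directions thus depended on the scaling. With median centring the median of all genes moved by 0.12. There 7 of 33 members were called higher at an unadjusted p under 0.05, beside 2701 of 22565 genes over the whole array. The 7 were Gria1, Grid1, Grm2, Homer1, Homer2, Dlg1 and Shank3. The directions below are therefore relative to the 75th percentile. The groups did not overlap for 4 of 33 members, against 19.9% of all genes. Gria1 and Dlg1 were higher in every knockout sample (7.74% of all genes were), and Grik3 and Homer3 were lower in every knockout sample (12.2% of all genes were), although with median centring the groups of both overlapped and the difference of Grik3 was 0.02. Differences are given as knockout minus wild type on the log2 scale. Differences had a median over the members of 0.04, beside -0.01 over all genes, with 19 members above 0 and 14 below. They ran from -0.32 for Grin2b to 0.19 for Homer1.

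Under the scaling used here, with the brightest probe for each gene, the differences were small as well as uncalled. For 32 of 33 members (97.0%) the difference was under 0.2 in either direction, beside 70.4% of all genes. The median size of the difference was 0.09 for the members and 0.11 for all genes. The 95% interval of the difference lay inside a 1.5-fold change for 31 of 33 members (93.9%), beside 71.6% of all genes. The exceptions were both NMDA subunits, Grin2b with an interval of -0.95 to 0.30 and Grin3b with -0.90 to 0.52. The shares here were not matched for signal level, and dimmer probes of some members, given below, differed by more than 0.2. The count under 0.2 also depends on the setting. With median centring the median difference of the members was 0.16. Homer1 and Gria1 then passed 0.2, at 0.31 and 0.29, whereas Grik3 stood at 0.02. With the mean of a gene's probes, Homer1 and Homer3 passed it, at 0.34 and -0.40, whereas Gria1 stayed at 0.17. Per array, the median of the members relative to the wild-type mean was 0.00, -0.03 and 0.00 in wild type and -0.02, 0.08 and 0.03 in knockout. Within slide 1, where knockout array 1 met the 3 wild-type arrays, 19 members were lower and 14 higher in knockout, and the median of the members was -0.02, the same as for all genes. The sign of the median therefore differed between slide 1 alone and all 6 arrays.

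**Figure D2:**
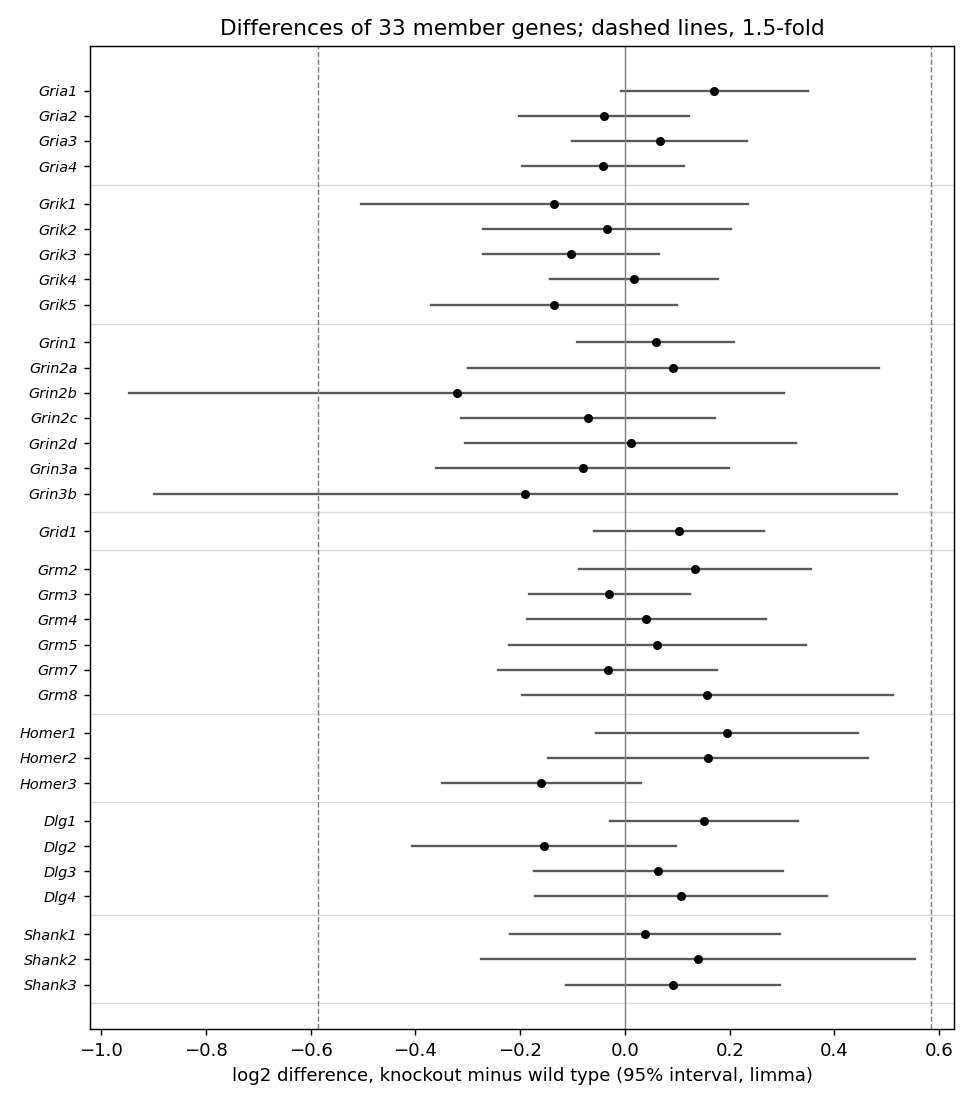
Difference between knockout and wild type for the 33 measured members (horizontal axis, log2 scale), with the 95% interval from limma. Dashed lines mark a 1.5-fold change in either direction, and the intervals of Grin2b and Grin3b reach past the lower one.

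AMPA receptors carry most of the fast excitatory current. Gria1, a subunit delivered to synapses during potentiation, read 1.65, 1.75 and 1.70 in wild type and 1.77, 1.93 and 1.91 in knockout. All 3 knockout values lay above all wild-type values, although the lowest of them exceeded the highest wild-type value by little. The difference was 0.17 ± 0.07 (SE, n = 3 per group, limma across all genes, adjusted p = 0.41). Gria2, whose edited form makes the channel impermeable to calcium, read -0.57, -0.64 and -0.50 in wild type and -0.59, -0.66 and -0.58 in knockout, with overlapping groups and a difference of -0.04. A dimmer Gria2 probe differed by -0.28 ± 0.14 (SE), also with overlapping groups. Gria3 and Gria4, the other pore-forming subunits, differed by 0.07 and -0.04. The balance of Gria2 to Gria1, taken as their difference within each sample, was -2.27 ± 0.11 (SD, n = 3) in wild type and -2.48 ± 0.12 in knockout. The change of -0.21 was not called (two-sided exact permutation test, p = 0.2, 0.3 after adjustment over 3 such balances, where 0.1 is the smallest p that 3 against 3 samples allow). It was -0.09 within slide 1.

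Kainate receptors modulate both sides of the synapse. Of the 5 subunits, 4 had a difference below 0 and the class median was -0.10, which was 0.02 with median centring. Grik3 read 1.69, 1.82 and 1.68 in wild type and 1.59, 1.67 and 1.61 in knockout, with every knockout value below every wild-type value by a narrow margin. The difference was -0.10 ± 0.07 (SE). A further Grik3 probe, read at a much dimmer signal, gave -5.70, -5.69 and -5.65 in wild type and -5.98, -6.21 and -6.12 in knockout. These groups were well apart, with a difference of -0.42 ± 0.08 (limma across all 31940 tested probes, adjusted p = 0.23). It had the smallest p of all probes of the members, and its difference was -0.11 with normexp background correction. Both Grik3 probes lie on chromosome 4, about 13.0 and 13.1 Mb from the Pla2g2e probe (mm9). Grik1, which forms channels on its own, differed by -0.13 on its brighter probe. Its dimmer probe read -6.12, -6.21 and -5.19 in wild type and -6.42, -6.34 and -6.43 in knockout. Wild-type array 3 stood apart from the other wild-type arrays. Every knockout value lay below every wild-type value, with a difference of -0.55 ± 0.27 (SE, limma, adjusted p = 0.46). Grik2 and Grik4 differed by -0.03 and 0.02, and Grik5, a subunit that needs partners to form a channel, by -0.14.

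NMDA receptors detect coincident activity and admit calcium. Grin1, the obligatory subunit, read 1.74, 1.66 and 1.68 in wild type and 1.70, 1.80 and 1.76 in knockout, with a difference of 0.06 and overlapping groups. Grin2b, the subunit prominent in early development, had the largest difference of any member. It read 0.76, 1.01 and 1.28 in wild type and 0.45, 1.22 and 0.41 in knockout, so that knockout array 2 lay among the wild-type values and the other knockout arrays below all of them. The difference was -0.32 ± 0.25 (SE), and -0.58 without knockout array 2. A further Grin2b probe, in the same transcript, differed by -0.04, with 0.82, 0.80 and 0.89 in wild type and 0.72, 0.98 and 0.70 in knockout. Grin2a, the subunit that becomes prominent with maturation, read 0.88, 0.68 and 0.57 in wild type and 0.56, 1.101 and 0.75 in knockout. Knockout array 2 was thus the highest of the knockout arrays for both Grin2a and Grin2b. The balance of Grin2b to Grin2a was 0.30 ± 0.42 (SD, n = 3) in wild type and -0.11 ± 0.23 in knockout, a change of -0.41 that was not called (two-sided exact permutation test, p = 0.3, adjusted 0.3). Grin2c and Grin2d differed by -0.07 and 0.01. Grin3a, one of the glycine-binding subunits that lower calcium entry, differed by -0.08. Grin3b, the other, read -3.83, -4.38 and -4.15 in wild type and -3.93, -4.92 and -4.09 in knockout, with knockout array 2 the lowest. Grid1, a delta subunit that binds cerebellins and takes part in synapse formation, differed by 0.10 and was not called (limma, adjusted p = 0.55). At an unadjusted p under 0.05 it was called higher under each of the other 3 scalings, with 0.22 by median centring, 0.19 by quantile normalization and 0.17 by normexp background correction.

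Of the metabotropic receptors, Grm5 couples to phospholipase C and calcium release, and the others measured lower cyclic AMP. Grm5 read 3.00, 2.92 and 3.32 in wild type and 3.08, 3.20 and 3.15 in knockout, with overlapping groups and wild-type array 3 the highest of the 6. Its difference was 0.06 ± 0.12 (SE). Grm2 and Grm3, found on terminals and on glia, differed by 0.13 and -0.03. Grm4, Grm7 and Grm8, which act mostly at the release site, differed by 0.04, -0.03 and 0.16. A further Grm4 probe read -3.54, -3.29 and -2.79 in wild type and -3.72, -3.39 and -3.50 in knockout, again with wild-type array 3 the highest. The class median was 0.05. Grm6 read -9.66 to -8.996 in wild type and -9.35 to -8.63 in knockout, with no array well above background in either group.

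Homer1 is made in forms that differ in function. The long forms carry a coiled coil, through which they multimerise and tie Grm5 to Shank and to intracellular calcium stores. The short form, known as Homer1a, is induced by neuronal activity, lacks the coiled coil and displaces the long forms. The array held 5 Homer1 probes, 3 listed for the short transcript and 2 for long ones, all on the plus strand of chromosome 13 (mm9). Of the probes below, 3 are those listed for the short transcript and 1 is a long-form probe for comparison. The capitals mark an in-frame stop codon at the end of the probe A_55_P1982121, in a reading frame that is open up to it.
A_55_P2122789 (upstream, 94116595 to 94116654): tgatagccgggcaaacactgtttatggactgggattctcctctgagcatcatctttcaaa
A_55_P1982122 (upstream, 94125924 to 94125983): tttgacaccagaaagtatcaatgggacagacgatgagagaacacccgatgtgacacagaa
A_55_P1982121 (stop codon, 94126009 to 94126068): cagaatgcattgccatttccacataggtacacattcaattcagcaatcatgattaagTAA
A_66_P104134 (long, 94157507 to 94157566): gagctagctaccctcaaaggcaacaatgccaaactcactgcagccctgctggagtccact

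The first and the second probe start 183 bases apart in the transcript and 9329 bases apart in the genome, so at least 1 intron lies between them. The second and the third start 85 bases apart in both, within the same stretch of the genome. In the files, no transcript listed for the long probes is also listed for the other 3. The files list only a few transcripts per probe, so a shared transcript could be missing. Whether long transcripts bind the first 2 was not settled, since no mm9 annotation was used here. Only the probe with the stop codon is therefore read here as a probe of the short form, and the first 2 are called upstream probes.

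The stop-codon probe and both upstream probes were higher in every knockout sample than in any wild-type sample. The stop-codon probe read -0.82, -0.24 and -0.68 in wild type and -0.21, 0.16 and -0.03 in knockout. Wild-type array 2 came within a small step of knockout array 1, and the remaining samples were well apart. The difference was 0.55 ± 0.17 (SE, limma across all 31940 tested probes, adjusted p = 0.34). The first upstream probe read 0.78, 0.63 and 0.60 in wild type and 0.88, 1.22 and 1.02 in knockout, a difference of 0.37 ± 0.11 (limma, adjusted p = 0.32). The second read 0.26, 0.21 and 0.11 in wild type and 0.44, 0.71 and 0.51 in knockout, a difference of 0.36 ± 0.095 (limma, adjusted p = 0.30). On each of the 3, knockout array 2 was the highest and knockout array 1 the lowest of the knockout samples. None of them passed after adjustment.

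On both long-form probes the groups overlapped. The brighter, A_55_P1982111, read 2.73, 2.57 and 2.46 in wild type and 2.65, 2.89 and 2.81 in knockout, a difference of 0.19 ± 0.10. The other, A_66_P104134, read 0.44, 0.07 and 0.24 in wild type and 0.28, 0.71 and 0.37 in knockout, a difference of 0.20 ± 0.15. Every Homer1 probe thus had a difference above 0, with the larger values on the stop-codon and upstream probes. That contrast itself was not called. The balance of the stop-codon probe to the brighter long probe was -3.17 ± 0.36 (SD, n = 3) in wild type and -2.81 ± 0.07 in knockout, a change of 0.36 (two-sided exact permutation test, p = 0.3, adjusted 0.3). With the first and the second upstream probe in its place the groups did not overlap, with changes of 0.18 and 0.16 (exact permutation p = 0.1 for both, the smallest possible). Against the other long probe, the same upstream probes gave 0.17 and 0.16 with overlapping groups (exact permutation p = 0.2 for both), and the stop-codon probe gave 0.35 (exact permutation p = 0.4). These pairs were added after the values were seen. With slide as a block, which compares knockout array 1 with the wild-type arrays, the differences of these 3 probes were 0.21, 0.25 and 0.37 in genome order and none was called at an unadjusted p under 0.05.

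**Figure D3:**
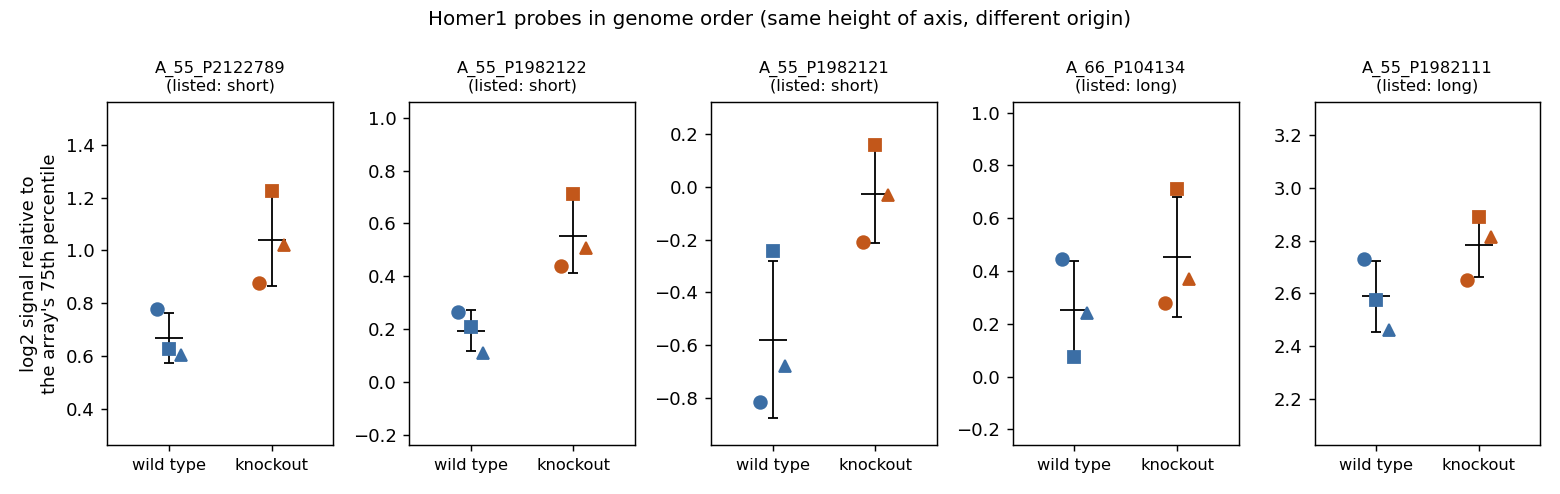
Signal of the 5 Homer1 probes by sample, in genome order from left to right (log2 relative to the 75th percentile of the array, each panel spanning the same height). Bars give the mean and SD of 3 samples. The groups are apart for the 3 probes listed for the short transcript and overlap for the 2 listed for long ones. Only the stop-codon probe A_55_P1982121 is read as a probe of the short form, since whether long transcripts bind the upstream probes was not settled.

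Immediate early genes, which neurons switch on within minutes of activity, were read beside Homer1. All 8 had a difference above 0, with a median of 0.53, and 2 had an unadjusted p under 0.05 (3.1% of all genes were called higher). Fosb, a transcription factor of the AP-1 family, read -0.05, 0.78 and 0.04 in wild type and 1.05, 1.06 and 1.15 in knockout. Nr4a1, a nuclear receptor, read 4.48, 4.82 and 3.91 in wild type and 5.27, 4.95 and 5.15 in knockout. Both were higher in every knockout sample, with differences of 0.83 ± 0.22 and 0.72 ± 0.24 (limma, adjusted p = 0.30 and 0.35). Per array, the median of the list relative to the wild-type mean was 0.13, 0.42 and -0.51 in wild type and 0.78, 0.39 and 0.54 in knockout. Wild-type array 3 was the lowest and knockout array 1 the highest. On both upstream Homer1 probes wild-type array 3 was also the lowest of all arrays, at 0.60 and 0.11. On the stop-codon probe wild-type array 1 was, at -0.82. Among the knockout arrays, knockout array 1 was the lowest on each of these Homer1 probes. The part of the immediate early genes in the Homer1 values was not tested.

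The Homer1 promoter was read from RefSeq (GRCm38.p6), which held promoters for 23 of the 34 members, 36 in all. It is shown because the short form is activity-induced and TGACGT is the core of the cyclic AMP response element. Which Homer1 forms start from this promoter was not determined, and its part in the probe values was not tested. The 250 bases before the start site, at chr13:93303507-93303756 on the plus strand, have the matches in capitals.
Homer1 promoter: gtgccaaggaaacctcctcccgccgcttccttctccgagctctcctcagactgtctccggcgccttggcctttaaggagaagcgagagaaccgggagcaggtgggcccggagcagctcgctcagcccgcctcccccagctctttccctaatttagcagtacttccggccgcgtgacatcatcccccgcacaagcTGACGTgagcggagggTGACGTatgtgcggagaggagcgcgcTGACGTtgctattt
TGACGT was searched on both strands, and the 3 matches begin at -56, -40 and -14 relative to the start. A second listed Homer1 promoter held none, and neither did any promoter of the other matched members. Of 32851 mouse promoters of the same length, 6.47% held at least 1 match and 50 (0.152%) held 3 or more. A match describes the letters and not a bound site.

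Homer2, a related long-form scaffold, differed by 0.16 with overlapping groups. Homer3 read -3.73, -3.69 and -3.74 in wild type and -3.77, -3.995 and -3.88 in knockout, with knockout array 1 just below the wild-type values and the other two further down. Its difference was -0.16 ± 0.08, and it was -0.04 under each of the other 3 scalings. A dimmer Homer3 probe, listed for another transcript, read -5.96, -6.38 and -5.83 in wild type and -6.46, -7.04 and -6.62 in knockout. There the difference was -0.65 ± 0.21 (limma, adjusted p = 0.34), and it was -0.17 with normexp background correction.

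Among the Dlg scaffolds, Dlg1 (SAP97), which accompanies Gria1 on its way to the membrane, read 0.42, 0.22 and 0.37 in wild type and 0.50, 0.50 and 0.47 in knockout. Every knockout value lay above every wild-type value and the knockout samples were nearly equal. The difference was 0.15 ± 0.07 (limma, adjusted p = 0.45), and the groups overlapped on both of the other Dlg1 probes, with differences of 0.17 and 0.01. Dlg2 (PSD-93) differed by -0.15, and another of its probes was above background on none of the 6 arrays. Dlg3 and Dlg4, the latter encoding PSD-95, differed by 0.06 and 0.11. Dlg4 read 2.63, 2.69 and 2.49 in wild type and 2.54, 2.91 and 2.67 in knockout, so the groups overlapped.

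Shank1, Shank2 and Shank3, the scaffolds that lie beneath the Dlg layer, differed by 0.04, 0.14 and 0.09, each with overlapping groups. A dimmer Shank2 probe differed by 0.37 ± 0.17 (SE), also with overlapping groups. One of the 4 Shank1 probes, listed only for an Ensembl transcript, stood apart. It read -4.20, -4.52 and -4.39 in wild type and -4.01, -4.02 and -4.003 in knockout, a difference of 0.36 ± 0.095 (limma, adjusted p = 0.30). The knockout values were nearly equal and lay above all wild-type values. The other Shank1 probes differed by 0.04, 0.13 and -0.07 with overlapping groups.

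Over all 61 tested probes of the members, 4 were higher and 2 lower in knockout at an unadjusted p under 0.05. That is 6.56% and 3.28%, beside 3.07% and 9.01% of all 31940 tested probes. The higher probes were the stop-codon probe and both upstream probes of Homer1, which share a transcript, and the Shank1 probe above. The lower ones were the dimmer probes of Grik3 and Homer3. The groups did not overlap, with knockout above, for 6 probes (7.47% of all probes were so) and, with knockout below, for 5 (11.9%). The probes of 1 gene share its transcripts and are not independent of each other. Of 20 members with several tested probes, 5 had probes that differed in sign.

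**Figure D4:**
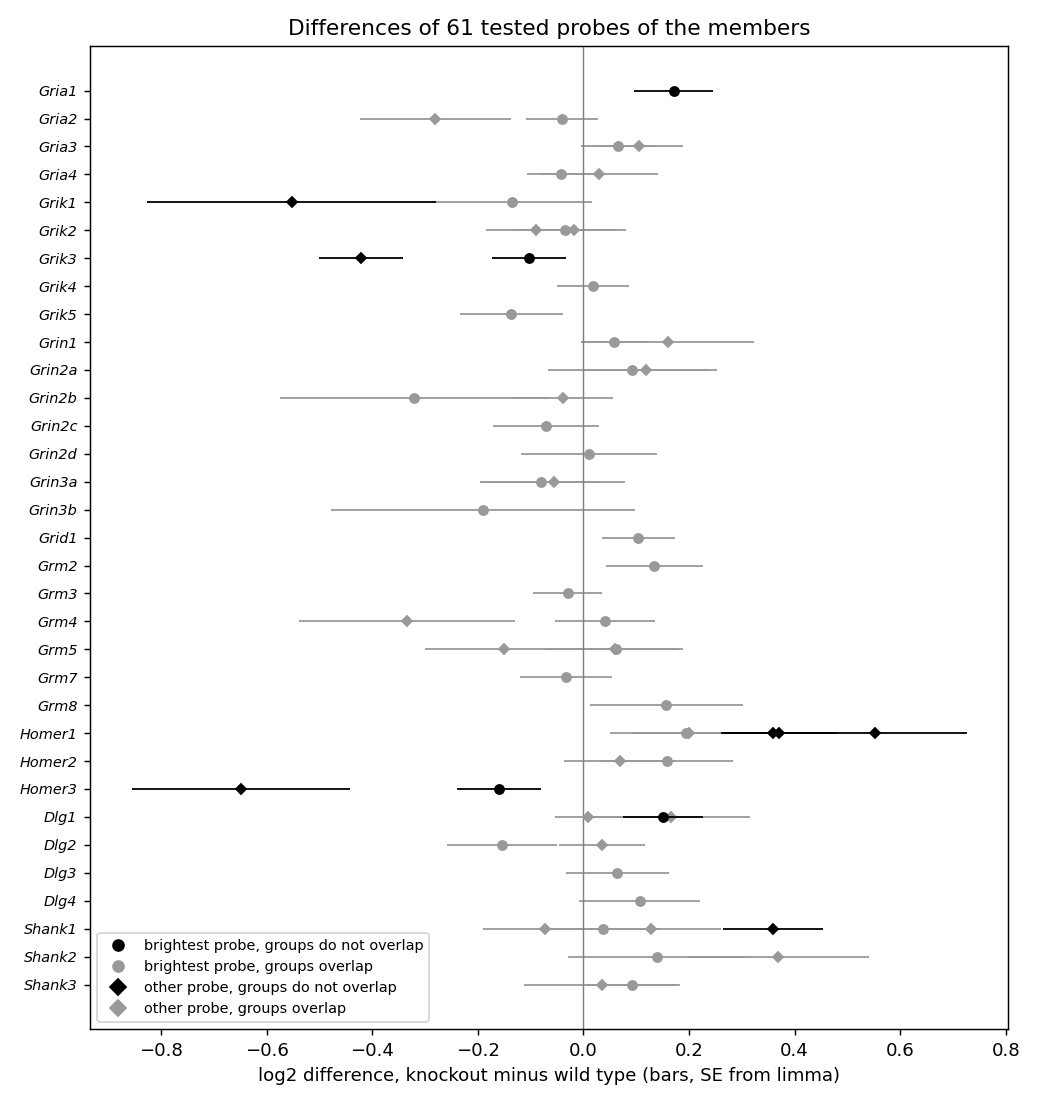
Difference between knockout and wild type for each of the 61 tested probes of the members (horizontal axis, log2 scale, bars are the SE from limma). Circles are the brightest probe of a gene, which stood for it in the gene test, diamonds its other probes, and black marks probes whose groups do not overlap (6 above 0 and 5 below).

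The proteins that work with the receptors were read as 4 further lists. Of 16 auxiliary subunits of AMPA and kainate receptors, which tune gating and trafficking, 0 had an unadjusted p under 0.05, and the median difference was -0.01. Cnih2 and Frrs1l, the brightest of them, differed by -0.02 and 0.10. Of 19 postsynaptic density partners, 1 was higher at an unadjusted p under 0.05 (3.1% of all genes were) and the median was 0.04. It was Dlgap4, a link between Dlg and Shank, which read 3.83, 3.82 and 3.90 in wild type and 3.97, 4.03 and 3.999 in knockout (difference 0.15 ± 0.06, limma, adjusted p = 0.39). The bright genes Dlgap3, a relative of Dlgap4, and Kalrn, an exchange factor of spines, differed by 0.04 and 0.10.

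Of 17 measured genes for excitatory synapse adhesion and receptor clustering, 2 were higher at an unadjusted p under 0.05 and 0 lower. Of all genes, 3.1% were higher and 9.34% lower. All knockout values lay above all wild-type values for 4 of the 17 (7.74% of all genes) and below for 0 (12.2%). The median difference of the list was 0.06. Nptx2, an activity-induced pentraxin that clusters AMPA receptors, read -0.36, -0.01 and -0.13 in wild type and 0.13, 0.19 and 0.09 in knockout, a difference of 0.30 ± 0.10 (limma, adjusted p = 0.36). Cbln2, a cerebellin that bridges neurexins to delta receptors, read -0.58, -0.50 and -1.20 in wild type and -0.42, -0.01 and -0.18 in knockout, with wild-type array 3 the lowest. Its difference was 0.56 ± 0.21 (adjusted p = 0.38). Lrrc4b, an adhesion protein, differed by -0.02, and Nlgn2, a neuroligin, by -0.04 with knockout array 2 lacking a value. Of 17 genes of metabotropic receptor signalling, 0 were called in either direction and the median was 0.01. Ncdn, a partner of Grm5, differed by -0.03, and Prkcb, a protein kinase C, by 0.04 with knockout array 3 lacking a value. All 4 lists thus had medians near that of all genes.

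**Figure D5:**
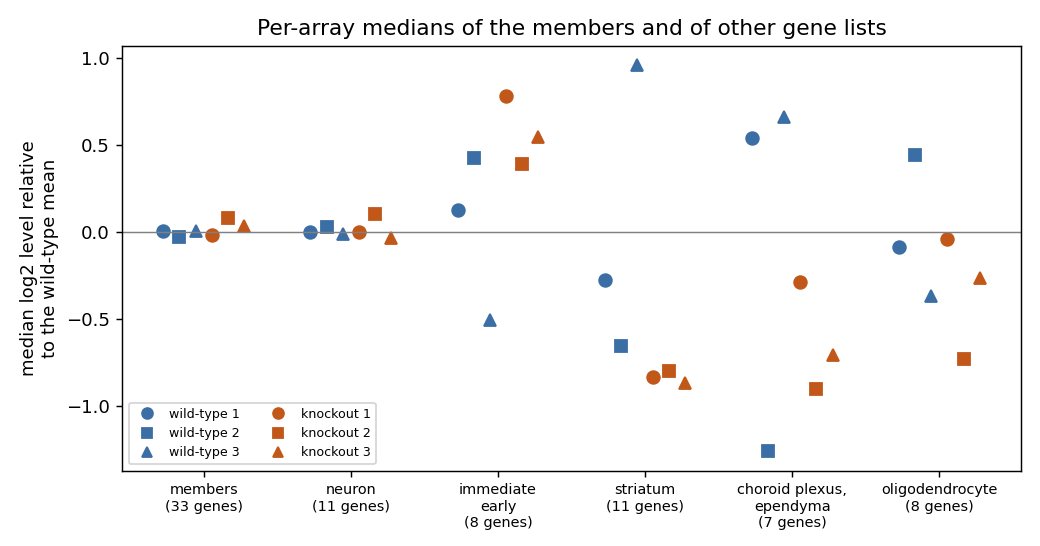
Median level of the members and of other gene lists on each array, relative to the wild-type mean (vertical axis, log2 scale; number of genes under each list). The members and the 11 neuron markers stay near 0, whereas striatum markers stand at 0.96 on wild-type array 3 and immediate early genes at -0.51.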

How the data were processed

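Deposited values are spot intensity readings of array design 026655, taken from the scanned image with Agilent Feature Extraction 12.1.1.1 (protocol GE1_1200_Jun14, grid on mm9), per the file headers. Its processed signal had been background-subtracted and detrended; 2368 to 3150 dim spots per array carry a surrogate value, so differences of dim probes depend on the background treatment. The labels' protocols give 200 ng of total RNA, amplified and labelled with Cy3. 

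Control spots and flagged outlier spots were left out. Flagged spots numbered 68 to 98 per array on slide 1, and 314 and 530 on knockout arrays 2 and 3, which were on slide 2. The log2 processed signal was scaled to the array's 75th percentile (control spots excluded) and averaged per probe. Tested probes were well above background throughout 1 group or both and had at least 2 values per group (31940 of 39429 probes). The brightest tested probe stood for a gene (6255 genes had several). RefSeq accessions gave names to 29510 probes, and 2030 had none. Knockout and wild type were compared with limma 3.58.1 (lmFit, eBayes) in R 4.3.3 without covariate, with Benjamini-Hochberg adjustment over 22565 genes, and separately over probes; figures were drawn with matplotlib. The script was tested on simulated data. Balances were compared by exact permutation. The number of arrays limits the precision.

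All 34 members are named, as are, of each partner list, up to 3 genes per direction with the smallest unadjusted p under 0.05 and non-overlapping groups, and the 2 brightest genes. Members and lists were chosen with earlier results of these data known. Marker lists of neurons, of brain regions and of other cell types, and immediate early genes, were read as context. Alternatives covered the scaling, background correction, dim-probe filter, outlier spots, choice of probe, slide, replicate block, variance prior and leaving out each sample. The replicate numbers did not pair the samples. Sequences beyond the array's own probes are RefSeq's (GRCm38.p6). Coordinates of probes are those of the files (mm9), and the exon under each probe was not determined.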

Additional observations from a re-analysis of the deposited data

How the results depend on the processing

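Median centring raised the median of all genes by 0.12. Of the members, 7 then had an unadjusted p under 0.05 with knockout higher, as did 2701 of all genes tested. All knockout values lay above for 12 members and below for 0, with a median of 0.16 over the members. Relative to all genes the median of the members was 0.05 both before and after. Members called higher numbered 1 with quantile normalization, 3 with normexp background correction, 1 with the mean of a gene's probes, 1 with slide as a random block and 1 with a trended, robust variance prior. Of all genes tested, 1165, 1153, 698, 874 and 913 were called higher in these settings, in the same order. With the mean of probes the differences of Homer1, Grik3 and Homer3 were 0.34, -0.26 and -0.40. Members called lower numbered 1 with normexp and 2 with the mean of probes, beside 1105 and 2154 of all genes tested. Members with all knockout values below numbered 1 with quantile normalization, 1 with normexp and 7 on slide 1 alone. On slide 1 only 1 knockout array met 3 wild-type arrays, so non-overlap is easily reached there. Shares of all genes without overlap are not given for these settings or for those that leave out a sample. Such counts are therefore not read as results about the members. The median of the members was 0.011 with the mean of probes and -0.021 with slide as a fixed block or on slide 1 alone. The balance of Gria2 to Gria1 was -0.33 with the mean of probes and -0.088 in both slide settings. Genes with an unadjusted p under 0.05 numbered 2807, 1198 with slide as a fixed block and 936 on slide 1 alone. The causes were not tested.

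Leaving out 1 sample at a time gave 0 to 59 genes past adjustment (59 without knockout array 1), 1621 to 3364 at an unadjusted p under 0.05, 0 to 2 members higher (2 without wild-type array 1), 0 to 1 lower (1 without knockout array 1 or 2), 2 to 6 with all knockout values above (6 without wild-type array 1 or 3, 4 without knockout array 1), 2 to 6 with all below (6 without wild-type array 1, 5 without knockout array 2, 4 without wild-type array 2) and a median of -0.013 to 0.056. Without knockout array 2 or 3 the genes at an unadjusted p under 0.05 numbered 1664 and 1621. The lowest median came without knockout array 2, and it was 0.00066 without wild-type array 2. Over all 18 alternatives, not only those that leave out a sample, the balances of Grin2b to Grin2a ran from -0.63 to -0.21. Those of Gria2 to Gria1 ran from -0.33 to -0.09 and those of the Homer1 forms from 0.17 to 0.53. Samples with the same replicate number did not deviate together (correlations -0.016, -0.135 and -0.118), so the numbers were not used as pairs; with them as a replicate block, 2409 genes had an unadjusted p under 0.05, 0 members were called and their median stayed at 0.04. The stop-codon probe and both upstream probes of Homer1 stayed above 0 in all 17 alternatives, with p under 0.05 in 15, 15 and 12 of them in genome order; the stop-codon probe lost its call without wild-type array 1, wild-type array 3 or knockout array 2, and so did the dimmer Homer3 probe. Over the 4 scalings, 24 of 33 members kept their direction, and 14 did so in every setting, Gria1, Dlg1, Homer1 and Homer3 among them and Grik3 not.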

Other observations

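Genes with higher signal on wild-type array 3 than on any other array included partners of the receptors as well as striatum markers, and were picked after their values were seen. Cacng5, an auxiliary AMPA receptor subunit, read -2.98, -3.17 and -1.26 in wild type and -3.14, -3.27 and -3.17 in knockout. Shisa6, another AMPA receptor auxiliary protein, read -1.01, -1.15 and 0.03 in wild type and -1.01, -1.04 and -1.18 in knockout. Rgs14, a regulator of G protein signalling, read 0.89, 0.87 and 1.79 in wild type and 0.84, 0.94 and 0.97 in knockout. Gsg1l, also an AMPA receptor auxiliary subunit, read 0.93, 0.77 and 1.55 in wild type and 0.72, 0.96 and 0.88 in knockout. In each, the 5 arrays other than wild-type array 3 lay close together whatever their genotype label.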
